A study of Mus musculus with 5375 samples.

Results

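The comparison concerns 635 tumour cells (TCs) recovered from mouse lungs through the latent gate of day 3.5 or the extravascular gate of day 1.5. Each cell was assigned to its gate by the sequencing pool given in its name and to its animal by the mouse identifier in the deposited annotation. The 2 gates make up 635 of the 1566 TCs that the authors kept, in a series of 5375 sorted cells. The question was how TCs that had kept their division dye until day 3.5 differed in transcription from TCs that had left the vessels by day 1.5.

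All TCs were 4T1 cells, a mouse mammary carcinoma line that arose in a BALB/c animal, marked with GFP, a green fluorescent protein. They were stained with CellTrace, which daughter cells share out as they divide, and injected into the tail vein of female BALB/c mice. On day 1.5 the mice received an antibody against H-2Kd through the circulation, and TCs that it had not stained were sorted as extravascular (mice m5 to m8), whereas stained TCs of the same mice were sorted as intravascular. On day 3.5 TCs that had retained the dye were sorted as latent TCs (LTCs, mice m9 to m12), irrespective of whether they lay inside or outside the vessels. CD45+, LYVE1+, PDPN+ and TER119+ cells had been excluded by the sort. Both gates thus hold the same injected line and carry the same dye and protein, but they come from different animals, days and sequencing lanes, so that gate, day, animal set and lane cannot be told apart. The study describes the gates as an enrichment of the wanted cells and not as pure populations.

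As background, most TCs that reach a distant organ die or stop dividing, and the survivors may persist for long periods as disseminated latent cells. Cells that leave the cycle usually lower the synthesis of ribosomes and of DNA replication factors. Interferon exposure raises class I antigen presentation, in which the immunoproteasome cuts proteins into peptides that class I molecules show to T cells.

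Read counts of the kept cells were summed per animal into 4 latent libraries (80, 85, 84 and 80 cells from m9, m10, m11 and m12) and 4 extravascular libraries (75, 80, 69 and 82 cells from m5, m6, m7 and m8). The 8 libraries held 31.9 to 48.1 M reads. Levels are CPM values, which are read counts scaled to the same total in every library, with totals adjusted by the trimmed mean of M-values method (TMM), and values per library are given in the order m9 to m12 for LTCs and m5 to m8 for extravascular TCs. In such sums fewer expressing cells and less RNA per cell cannot be told apart.

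Both gates held cells with the markers of the injected line. Krt18, a keratin of simple epithelia, had reads in 100% of the cells of either gate, and at least 3 of 6 tumour markers were detected in 97.6% of LTCs and 97.4% of extravascular TCs. Of 16 leukocyte markers, 2 had no read in the latent libraries and 7 none in the extravascular ones, and their summed level ranged from 3.77 to 263.2 CPM in LTCs and from 0.423 to 4.71 CPM in extravascular TCs. Reads of 3 or more leukocyte markers were found in 4 latent cells, 2 each from m9 and m12, and in 0 extravascular cells. The summed levels of 16 endothelial markers (51.2 to 87.4 CPM in LTCs against 41.4 to 59.4 CPM), 11 lung epithelial markers (1.86 to 10.7 against 5.11 to 9.44 CPM), 12 fibroblast and mural markers (24.9 to 49.6 against 10.2 to 42.5 CPM) and 4 mesothelial markers (117.6 to 166.2 against 62.5 to 146.1 CPM) overlapped between the gates. Those of 5 erythroid markers (5.85 to 21.4 against 2.53 to 6.62 CPM) and 6 platelet markers (161.97 to 213.6 against 144.9 to 246.8 CPM) overlapped as well, although Hba-a1, Hba-a2 and Pf4 were called higher in LTCs by the edgeR test. Without the 4 latent cells with leukocyte markers, an alternative chosen after seeing the data, 1747 genes were called in place of 1777 and 3 genes named by rule lost the call. Single genes made up most of some marker sums. In latent m9 Msln gave 118.04 of 118.2 CPM for mesothelial markers and Gng11 158.1 of 162.5 CPM for platelet markers. Npnt gave 39.3 of 47.9 CPM for fibroblast and mural markers there. Overlap of such sums says little about other members. Dcn had reads in 17 latent and 2 extravascular cells and Gp9 in 12 and 0, but Col3a1 in 0 and 2. Of tested endothelial markers 8 were higher in LTCs and 2 lower, and of platelet markers 3 and 2. The part of other cell types was not tested.

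LTCs scored as cycling less often than extravascular TCs. The share of cells whose S-phase and G2M scores summed to above 0 was 66.2%, 55.3%, 69% and 66.2% in the latent animals and 74.7%, 75%, 78.3% and 84.1% in the extravascular ones. Every latent animal lay below every extravascular animal, with means of 64.2% ± 6.09 (s.d., n = 4) and 78% ± 4.40 (s.d., n = 4). The difference was -13.8 percentage points, with a two-sided exact permutation p of 0.0286, which is the smallest p that 4 against 4 animals can give. The difference did not pass the test when cells were first thinned to 100000 reads (-6.01 points, exact permutation p = 0.0857) or when a sum above 0.2 was required (-6.11 points, exact permutation p = 0.257). More than 50% of the dye-retaining cells scored as cycling in each latent animal. The same score was above 0 in 79.3% of the proliferative cells of day 3.5 and 57.5% of the cultured cells, each taken as 1 pool. The score reflects the expression of cycle genes and is not a rate of division.

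At an equal depth of 100000 reads per cell, more genes were detected in LTCs. The median count of genes with reads was 5192, 5096, 5210 and 5253 in the latent animals and 4194, 4502, 4632 and 4468 in the extravascular ones. The 2 groups of animals did not overlap, and the difference of their means was 738.4 genes (exact permutation p = 0.0286). Ribosomal protein and mitochondrial genes took up fewer of the reads in LTCs, and the part of this in the count was not tested. The mitochondrially encoded share of the reads was lower in LTCs, at 1.87%, 1.97%, 2.25% and 1.61% against 2.61%, 3.09%, 3.58% and 2.73%. This difference of -1.08 percentage points likewise separated all latent from all extravascular animals (exact permutation p = 0.0286). Cells with more than 5% mitochondrial reads numbered 2 to 6 per latent library and 8 to 20 per extravascular library.

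**Figure D1:**
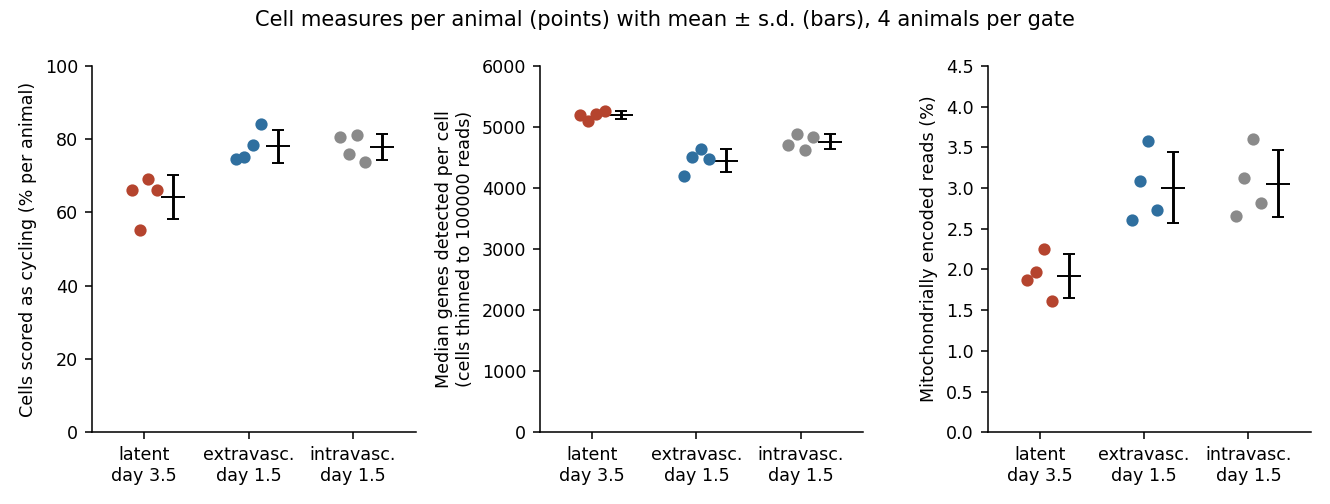
Share of cells scored as cycling (%), median number of detected genes per cell at 100000 reads, and mitochondrially encoded share of reads (%) for each animal (points), with the mean ± s.d. of 4 animals (bars), in the latent, extravascular and intravascular gates. Latent animals lie below extravascular ones for cycling (55.3 to 69% against 74.7 to 84.1%) and mitochondrial reads, and above them for detected genes (5096 to 5253 against 4194 to 4632).

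Differential expression between the gates was tested with the quasi-likelihood test of edgeR and Benjamini-Hochberg adjustment over all 15639 genes tested. At an adjusted p under 0.05, 1777 genes (11.4%) were called, 745 higher in LTCs (4.76%) and 1032 lower (6.6%). At an unadjusted p under 0.05 there were 3910 genes. All 4 latent libraries lay above all 4 extravascular libraries for 8.49% of the genes tested and below them for 10.6%. The split between directions depended on the scale. On the mean of the deposited log10 values 80.4% of the called genes were higher, and the median of all genes moved by 0.29 log2. With each library centred on its median 29.5% were higher (median of all genes -0.16), and with every cell weighted equally 70% were higher (median 0.13). The read sums had a median of 0.00 and 41.9% of the calls higher. Without the cells scored as cycling, 531 genes were called, 416 of them lower (21.7% higher).

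**Figure D2:**
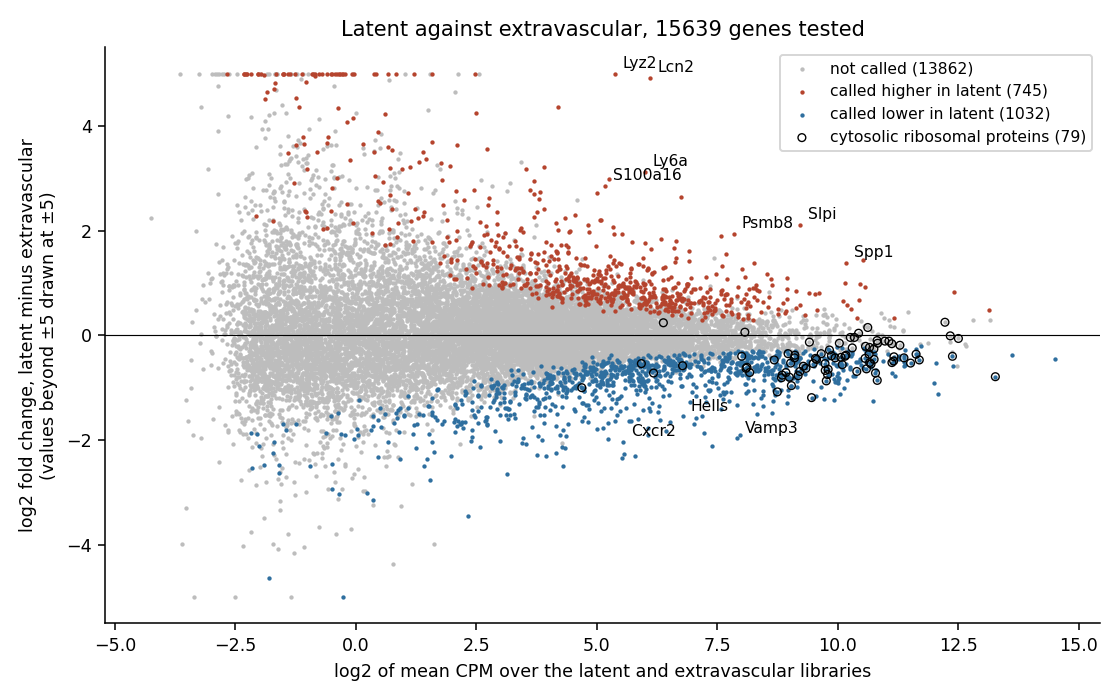
Each point is 1 of the 15639 genes tested, with the log2 of its mean CPM over the latent and extravascular libraries on the horizontal axis and its log2 fold change (latent minus extravascular) on the vertical axis. The 745 genes called higher (red) spread to large differences at low levels, and most of the 79 cytosolic ribosomal protein genes (open circles) lie at high levels just below the zero line.

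Textbook gene lists differed in how many of their members were called, and every count of members below stands beside 4.76% of all genes called higher and 6.6% called lower. The lists with the highest medians were class II antigen presentation, galectins, the circadian clock, class I antigen presentation and interferon response. Those with the lowest medians were mitochondrially encoded genes, sterol and fatty acid synthesis, and cytosolic ribosomal proteins. Without the cells scored as cycling, the counts of higher genes fell from 12 to 7 for class I presentation, from 16 to 8 for interferon response, from 9 to 3 for the integrated stress response and for immediate early genes, from 11 to 4 for lysosome and autophagy, from 5 to 1 for the clock and from 7 to 0 for epithelial markers. The counts of lower genes fell from 9 to 2 for ribosome biogenesis, from 8 to 4 for heat shock, from 7 to 3 for chaperones of the endoplasmic reticulum and from 8 to 1 for sterol and fatty acid synthesis, while mitochondrially encoded genes had 12 in either case and nuclear oxidative phosphorylation had 35 and 33. Among the called genes named by rule and described in the text, the calls of Ly6a, Anxa8, Oas1g, Ifi27, Ifitm3, Psmb8, H2-K1, Sox9, Klf4, Fn1, Ppp1r15a, Aars, Klf6, Fos, Grn, Map1lc3a, Nr1d1 and Lgals3 (higher) and of Rps21, Rpl39, Npm1, Ncl, Ndufa3, mt-Nd4l, mt-Co2, Hspe1, Hspd1, Hsp90b1, Hells, Pola1, Pbld1, Cxcr2, Mpv17l, Zfp934, Vamp3, Zfp131, Higd1a, Pdia3 and Atp5j2 (lower) held without those cells. The calls of the other such genes were lost there, except Lyz2 and H2-Eb1, which the fit without those cells did not test. That fit rests on 26 to 38 cells per latent animal and 13 to 20 per extravascular animal. Of 72 calls of named genes that it did not make, 20 had a fold change at least as large as with all cells and 17 had one under 50% of it or of the opposite sign. Among the former were Oas1a (3.96 log2, adjusted p = 0.054), Psmb9 (2.29 log2, adjusted p = 0.159), Per1 (2.17 log2, adjusted p = 0.155) and Fasn (-0.93 log2, adjusted p = 0.148). The parts of cell number and of cycling in the lost calls were not tested. Beside the 3 members of each list with the smallest p, any further member named below was picked after its values had been seen.

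**Figure D3:**
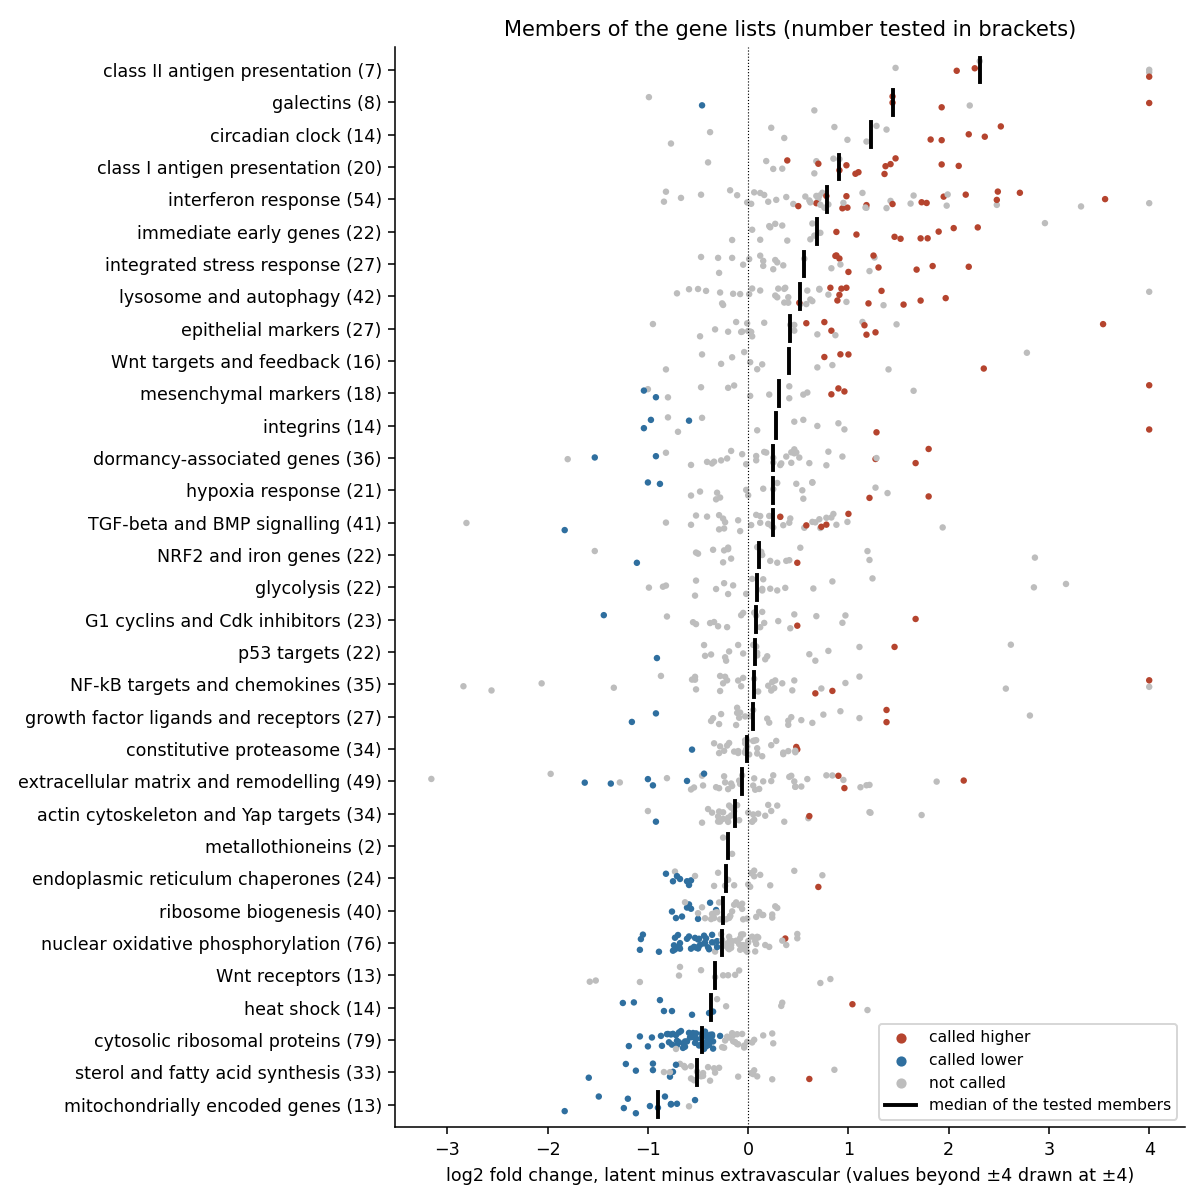
Log2 fold change (latent minus extravascular) of every tested member of 33 gene lists, with the number of members tested in brackets, coloured by the call, and the median of each list as a black bar. Medians run from 2.31 for class II antigen presentation down to -0.90 for mitochondrially encoded genes.

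Class I antigen presentation was higher in LTCs. Of its 20 members, all tested, 12 were called higher and 0 lower, against 4.76% and 6.6% of all genes, with a median log2 fold change of 0.91 against 0.00 for all genes. The summed level of the list was 7520, 7300, 7530 and 7160 CPM in LTCs and 4270, 5200, 4870 and 4530 CPM in extravascular TCs, without overlap.

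Psmb8 (chromosome 17, 34197721 to 34201454 of GRCm38), a catalytic subunit of the immunoproteasome, stood at 403.4, 322.8, 357.7 and 378.2 CPM in LTCs and at 101.9, 107.1, 72.5 and 101.7 CPM in extravascular TCs. All latent libraries lay above all extravascular libraries, a 3.81-fold difference (1.93 ± 0.13 log2, SE; adjusted p = 4.69e-06), and reads were found in 86.6% of LTCs and 62.7% of extravascular TCs. Psmb9, the neighbouring gene that encodes a further immunoproteasome subunit, was measured at 43.7, 41.2, 38.4 and 58.9 CPM against 8.02, 15.5, 11.9 and 6.88 CPM (2.10 ± 0.26 log2, adjusted p = 0.000167). Psmb10, the third catalytic subunit, differed by less, at 329.2 ± 21.9 against 202.8 ± 16.8 CPM (s.d., n = 4), or 0.70 ± 0.09 log2 (adjusted p = 0.00019). Of 34 members of the constitutive proteasome 2 were called higher and 1 lower, with a median of -0.01. These counts were 1 to 3 and 0 to 1 when 1 library was left out, with 1 higher without m5 or m11 and 0 lower without m6, m8, m9 or m11, and on the deposited log10 values 14 were higher.

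H2-K1 (chromosome 17, 33996017 to 34000347), a classical class I heavy chain, was measured at 673.6, 709.4, 713.9 and 603.9 CPM in LTCs and 224.2, 336.5, 339.2 and 358.2 CPM in extravascular TCs. The groups did not overlap (2.15-fold, 1.10 ± 0.21 log2, adjusted p = 0.00389). This class I chain carries the H-2K antigen, the target of the antibody used on day 1.5 to set the extravascular gate. Its mean was 314.5 CPM in the unstained extravascular TCs and 316.2 CPM in the stained intravascular TCs of the same mice. The part of that selection in the difference was not tested. B2m, the light chain shared by class I molecules, was at 2370, 2080, 2460 and 2310 CPM against 2110, 2230, 2100 and 1710 CPM, with overlapping groups, and was not called (0.18 ± 0.11 log2, adjusted p = 0.371). On centred log10 values B2m was called lower (-0.36 log2, limma, adjusted p = 0.0243). Further called members were H2-D1 (0.98 log2), H2-T23 (1.47 log2), H2-T22 (1.07 log2), Psme1 (0.91 log2), which encodes a subunit of the proteasome activator, and the related genes H2-Q4, H2-Q6 and H2-Q7, whose reads can be split among near-identical copies.

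Of 56 interferon response genes 54 were tested, and 16 were called higher and 0 lower, with a median of 0.79. This is 29.6% of those tested, beside 4.76% of all genes. On the deposited log10 values 31 were higher and 1 lower, and on centred values 3 were lower. With the same number of cells per animal 25 were higher. The count also moved with single libraries. It was 8 without m9, 9 without m11, 10 without m10 or m5 and 24 without m6. Summed over the list, the level was 4280, 3670, 3830 and 3940 CPM in LTCs and 2770, 2770, 2340 and 2360 CPM in extravascular TCs. Ifi27, an interferon-induced gene of mitochondrial membranes, stood at 495.9, 506.9, 489.1 and 568.8 CPM against 233.98, 281.7, 209.4 and 183.8 CPM (2.27-fold, adjusted p = 0.000184). Ifi35 was measured at 154.5 ± 11.3 against 78 ± 7.17 CPM (s.d., n = 4), or 0.99 ± 0.14 log2 (adjusted p = 0.000511). Ifitm3, a membrane protein that restricts virus entry, was at 1900, 1460, 1710 and 1740 CPM in LTCs and 1270, 990.6, 982.1 and 994.2 CPM in extravascular TCs (0.68 ± 0.10 log2, adjusted p = 0.000509), and its call was lost on centred log10 values.

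Oas1a, which senses double-stranded RNA, stood at 66.8, 79.1, 53.7 and 23.9 CPM in LTCs and 1.51, 19.1, 4.32 and 8.98 CPM in extravascular TCs (6.57-fold, 2.71 ± 0.64 log2, adjusted p = 0.0146). Its paralogue Oas1g showed 23 ± 6.16 against 2.96 ± 2.19 CPM (s.d., n = 4; 7.72-fold, adjusted p = 0.0132). Reads may be divided between these neighbouring copies. Reads of Oas1a were found in 37.7% of LTCs and 13.1% of extravascular TCs, so that the sums rested on a minority of cells in either gate.

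The promoters of the interferon list were searched for the core of the interferon-stimulated response element (a GAAA and a further GAAA in the same direction, 2 bases of any kind apart) on both strands in a window from 250 bases before to 50 bases after each RefSeq start (GRCm38.p6). The letters were present in 21 of the 42 members with a promoter sequence and in 3 of the 12 called ones (Oas1a, Gbp2 and Ifitm3), against 3.44% of 32851 promoters. The stretch of Oas1a shows the match, in capitals, close to the start (chr5:120907526-120907585, minus strand).
Oas1a: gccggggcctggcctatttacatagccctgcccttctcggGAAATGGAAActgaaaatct

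Class II antigen presentation had the highest median of the lists (2.31, 7 tested, 3 called higher and 0 lower), on low levels. The count of called members was 0 without m5, m7, m10 or m12 and 1 without m6, m8 or m9, and it was 1 with no filter on low counts, 2 without the 4 cells with leukocyte markers, 5 with DESeq2 and 0 without the cells scored as cycling. H2-Eb1, a class II chain, was at 3.91, 4.97, 1.13 and 2.54 CPM in LTCs and at 0 in all extravascular libraries, from reads in 11 latent and 0 extravascular cells. The reads over all latent cells were at least 173.5-fold higher than a floor of 3 counts over the extravascular group. Its call was lost when m5, m6, m7, m8, m9, m10 or m12 was left out, with adjusted p values of 0.0577, 0.0589, 0.0595, 0.0584, 0.0546, 0.0603 and 0.051. Cd74, the class II invariant chain, was at 22.7, 21.6, 16 and 39 CPM against 10.2, 12.6, 4.93 and 8.09 CPM. The latent libraries all lay above the extravascular ones, but the difference was not called (1.47 ± 0.53 log2, adjusted p = 0.0952), whereas DESeq2 called it (adjusted p = 0.0311).

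The genes with the largest rises were detected in a minority of cells. Across the 12 genes that rose most among called genes with separate groups and at least 20 CPM in 1 gate, the share of LTCs with reads ran from 3.65% for Lyz2 to 48.9% for S100a16. Lyz2, lysozyme of myeloid cells, was at 207.3, 0.426, 0.0263 and 122.9 CPM in LTCs and at 0 in all extravascular libraries. In each of m9 and m12 its reads came almost wholly from 1 cell (7055 and 5357 reads), and these cells also held reads of Ptprc (71 and 78), the CD45 antigen, and of Tyrobp (512 and 1304), an adaptor of myeloid receptors, beside reads of Krt18. The sum over LTCs was at least 3970-fold higher than a floor of 3 counts over the extravascular group. Without the 4 latent cells that had reads of 3 or more leukocyte markers, 1747 genes were called in all and 12 of the interferon list.

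Lcn2, a secreted iron-scavenging protein, was measured at 298.98, 121.04, 7.85 and 104.7 CPM in LTCs and 6.71, 6.05, 1.91 and 2.87 CPM in extravascular TCs. The lowest latent library lay just above the highest extravascular one (30.3-fold, 4.92 ± 0.91 log2, adjusted p = 0.00331), and reads were found in 18.8% and 3.27% of cells. Ly6a, the stem cell antigen Sca-1, was at 233.9, 41.2, 45.1 and 135.3 CPM against 4.46, 18.8, 9.65 and 19.3 CPM (8.70-fold, 3.12 ± 0.64 log2, adjusted p = 0.00621). Its relative Ly6c1 ranged from 7.30 to 47.5 CPM in LTCs and from 1.12 to 4.90 CPM in extravascular TCs (9.25-fold, adjusted p = 0.0072). In both Ly6 genes m9 and m12 were the high latent libraries. These libraries held the 4 cells with leukocyte markers, without which Ly6a and Ly6c1 were still called. Some markers of other cells were also high there, such as the endothelial genes Cldn5 (9.01, 0, 0.0263 and 13.8 CPM in LTCs) and Ramp2 (9.19, 0.135, 1.08 and 10.6 CPM) and the fibroblast gene Dcn (4.02, 0.0968, 0.0527 and 14 CPM), and their part in the Ly6 levels was not tested. Anxa8, a calcium-dependent membrane-binding protein, was at 84.2, 109.6, 43.2 and 35.3 CPM against 5.78, 14.7, 3.84 and 9.83 CPM (7.95-fold, 2.99 ± 0.48 log2, adjusted p = 0.00123). Angptl6, a secreted angiopoietin-like protein, was at 20.8 ± 5.67 against 2.30 ± 0.769 CPM (s.d., n = 4; 9.04-fold, adjusted p = 0.00195), and in culture it stood at 76.6 CPM. Single cells gave up to 53.9% of a latent library's reads of Lcn2 and up to 56% for Ly6a. These shares reached 39.3% for Ly6c1, 33.4% for Anxa8 and 54.4% for Angptl6. In extravascular libraries they reached 100%, 62.6%, 69.7%, 66.5% and 99.3% for the same genes in that order.

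Mxd4, Txnip and S100a16 were 3 further large rises. Mxd4, a partner of Max that opposes Myc, was at 18.3, 21.8, 19.6 and 25.9 CPM in LTCs and 5.75, 3.37, 2.06 and 1.30 CPM in extravascular TCs (6.85-fold, 2.78 ± 0.39 log2, adjusted p = 0.000441). Txnip, an inhibitor of thioredoxin and glucose uptake, was at 25.2, 22.2, 22.4 and 28.9 CPM against 3.51, 3.24, 2.30 and 5.78 CPM (6.64-fold, 2.73 ± 0.36 log2, adjusted p = 0.000315). S100a16, a calcium-binding protein, was at 98.8, 37.4, 46.2 and 70 CPM against 7.70, 8.79, 9.31 and 9.30 CPM (7.19-fold, 2.85 ± 0.33 log2, adjusted p = 0.000108). The groups were separate for all 3 genes, and reads were found in 37.7%, 44.4% and 48.9% of LTCs and 9.48%, 17.3% and 13.4% of extravascular TCs. All 3 calls held when cells were thinned to 100000 reads. They were lost without the cells scored as cycling, for Mxd4 at 2.26 log2 (adjusted p = 0.0846), for Txnip at 2.20 log2 (adjusted p = 0.198) and for S100a16 at 2.76 log2 (adjusted p = 0.154).

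Most ribosomal protein genes were lower in LTCs. Of 79 tested, 57 were called lower and 0 higher, against 6.6% of all genes lower, with a median of -0.46. Their summed level ranged from 94600 to 107000 CPM in LTCs and from 125000 to 135000 CPM in extravascular TCs. Without the cells scored as cycling 49 were called lower and 0 higher. Rps21, a protein of the small subunit, stood at 316.3, 230.02, 278.1 and 274.99 CPM against 577.2, 590.1, 613.4 and 551.5 CPM (2.12-fold lower, -1.08 ± 0.09 log2, adjusted p = 1.17e-05). Rpl39, of the large subunit, was at 508.3, 359.2, 394.9 and 450.3 CPM against 1050, 984.5, 955.2 and 915.8 CPM (2.28-fold lower, -1.19 ± 0.11 log2, adjusted p = 1.83e-05). Ribosomal protein genes have many processed copies in the genome, so that reads may be divided among copies.

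The direction of the ribosome biogenesis list depended on the scale. Of 40 tested, 9 were called lower and 0 higher (median -0.25), whereas on the deposited log10 values 4 were lower and 11 higher (median 0.21, where all genes had 0.29). Npm1 (chromosome 11, 33152287 to 33163206), a nucleolar chaperone of ribosome assembly, was at 1390, 1270, 1400 and 1430 CPM against 2080, 2220, 2170 and 2200 CPM (-0.66 ± 0.06 log2, adjusted p = 2.04e-05). Ncl, nucleolin, was at 1280 ± 87.9 against 1800 ± 86.7 CPM (s.d., n = 4; -0.50 ± 0.07 log2, adjusted p = 0.000736).

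Many genes of the respiratory chain were lower as well. Of 13 mitochondrially encoded genes 12 were called lower and 0 higher (median -0.90), and of 76 nuclear oxidative phosphorylation genes 35 were called lower and 1 higher (median -0.26). The mitochondrial share of reads differed in the same direction, and leaving out cells with more than 5% mitochondrial reads left 1664 genes called in all. mt-Co2, a subunit of cytochrome c oxidase, stood at 2790, 2670, 3160 and 2200 CPM in LTCs and 6030, 5860, 6130 and 5520 CPM in extravascular TCs (2.18-fold lower, -1.12 ± 0.10 log2, adjusted p = 1.89e-05). mt-Nd4l, a subunit of complex I, was at 592.1, 553.8, 645.6 and 517.7 CPM against 1440, 1280, 1500 and 1230 CPM (2.37-fold lower, -1.24 ± 0.09 log2, adjusted p = 4.69e-06). Among nuclear genes Ndufa3, also of complex I, was at 142.9, 101.6, 134.2 and 151.04 CPM against 313.4, 279.4, 258.97 and 267.6 CPM (2.11-fold lower, -1.08 ± 0.12 log2, adjusted p = 0.000108). Of 22 glycolysis genes 0 were called in either direction (median 0.09), although 4 had all latent above all extravascular libraries and DESeq2 called 4 higher.

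Of 43 S-phase genes 10 were called lower in LTCs and 0 higher (median -0.30). Of 54 G2M genes 4 were called higher and 2 lower (median -0.02), which is 7.41% and 3.7%, beside 4.76% and 6.6% of all genes. The count of lower G2M genes was 1 without m10, and without the cells scored as cycling 0 G2M genes were higher and 4 lower. These are the lists behind the cycling score. Hells, a chromatin remodeller of S phase (chromosome 19, 38930915 to 38971051), stood at 58.9, 53.3, 60.7 and 51.7 CPM in LTCs, and its extravascular libraries ranged from 144.97 to 190.5 CPM in extravascular TCs (2.93-fold lower, -1.55 ± 0.10 log2, adjusted p = 4.69e-06). Dtl, a ligase component that marks the licensing factor Cdt1 for turnover in S phase, was at 15.5 ± 3.09 against 39.5 ± 6.50 CPM (s.d., n = 4; -1.34 ± 0.19 log2, adjusted p = 0.000475), and Pola1, the catalytic subunit of DNA polymerase α, at 86 ± 4.49 against 148.6 ± 15.1 CPM (-0.79 ± 0.10 log2, adjusted p = 0.000163). Cdc25a, a phosphatase that promotes S-phase entry, was 2.72-fold lower, at 6.99 ± 1.56 against 19 ± 3.68 CPM (s.d., n = 4; adjusted p = 0.00101).

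Single mitotic genes were higher. Cdk1 (chromosome 10, 69335146 to 69352938), the mitotic kinase, was at 430.7, 386.9, 466.5 and 379.05 CPM in LTCs and 197.01, 257.1, 256.98 and 198.4 CPM in extravascular TCs, without overlap (1.83-fold higher, 0.87 ± 0.18 log2, adjusted p = 0.00677). Ube2c, the conjugating enzyme of the anaphase-promoting complex, was at 591.8, 401.3, 582.1 and 559.6 CPM against 206.8, 306.4, 262.1 and 235.4 CPM (2.11-fold higher, 1.08 ± 0.15 log2, adjusted p = 0.000372). Mki67, a marker of dividing cells, overlapped between the gates at 92.5, 93.9, 104.2 and 88.7 CPM against 104.6, 88.8, 95.9 and 107.1 CPM (-0.06 ± 0.14 log2, adjusted p = 0.833). Top2a (0.07 ± 0.11 log2) and Pcna (-0.15 ± 0.12 log2) were not called either. On centred log10 values, by contrast, Top2a (-0.73 log2, adjusted p = 0.00711) and Pcna (-0.55 log2, adjusted p = 0.0431) passed the threshold. The calls of Cdk1 (0.20 log2, adjusted p = 0.892) and Ube2c (0.26 log2, adjusted p = 0.927) were lost without the cells scored as cycling.

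Among regulators of G1, Cdkn2d, the inhibitor p19 of Cdk4 and Cdk6, was at 159.3, 119.4, 155.8 and 155.8 CPM in LTCs and 52.7, 47.7, 48.7 and 36.4 CPM in extravascular TCs (3.18-fold higher, 1.67 ± 0.20 log2, adjusted p = 0.000154). It differed by 0.50 log2 without the cells scored as cycling and was not called (adjusted p = 0.875). Cdk6 itself was 1.41-fold higher, at 203.8 ± 25.3 against 144.7 ± 10.6 CPM (s.d., n = 4; adjusted p = 0.00645). The inhibitors Cdkn1a, at 106.4, 80.4, 84.9 and 126.9 CPM against 164.4, 68.8, 88.1 and 55.8 CPM, and Cdkn1b, at 51.3, 39.5, 39.1 and 49 CPM against 42.8, 41.6, 37.5 and 38.7 CPM, overlapped between the gates and were not called (0.08 ± 0.33 and 0.16 ± 0.16 log2). By limma on the deposited log10 values both were called higher (0.84 log2, adjusted p = 0.0156, and 1.07 log2, adjusted p = 0.00174). Ccnd1, cyclin D1, was not called (0.14 ± 0.17 log2, adjusted p = 0.675) and turned to -0.65 log2 on centred log10 values, where it was called lower (limma, adjusted p = 0.00123).

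Myc, the growth-promoting transcription factor, was higher at 79.6, 94.8, 75.3 and 98.3 CPM in LTCs against 57.3, 45.9, 52.3 and 49.4 CPM in extravascular TCs, without overlap (1.70-fold, 0.76 ± 0.14 log2, adjusted p = 0.00239). It belongs to the Wnt target and feedback list, of which 4 of 16 tested members were called higher and 0 lower (median 0.41), namely Myc, Tcf7l2, Sfrp1 and Notum. That count fell to 2 without m7, m8, m9 or m12. Tcf7l2, a nuclear effector of the Wnt pathway, was at 43.6, 35.9, 27.1 and 48.4 CPM against 21.1, 14.9, 23.6 and 18.2 CPM (1.99-fold, 1.00 ± 0.21 log2, adjusted p = 0.00838). Without the cells scored as cycling 0 members of the list were called, with Tcf7l2 at 0.04 log2 (adjusted p = 0.979) and Myc at 0.89 log2 (adjusted p = 0.468). Of 13 Wnt receptors 0 were called (median -0.33). Of the study's Wnt pathway list 6 genes were called higher and 5 lower, which is 5.36% and 4.46% of those tested, against 4.76% and 6.6% of all genes, and the count of lower genes was 2 without m9 and 3 without m11 or m12. Axin2, a feedback target of the pathway, did not pass the filter on low counts.

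Of 27 genes of the integrated stress response 9 were called higher in LTCs and 0 lower, with a median of 0.56 and 6 to 12 higher when 1 library was left out. Ppp1r15a, which restores translation by removing the phosphate from eIF2α, stood at 42.7, 66.9, 55.7 and 54.3 CPM in LTCs and 15.9, 13, 9.80 and 9.27 CPM in extravascular TCs (4.58-fold, 2.20 ± 0.21 log2, adjusted p = 2.77e-05). Reads were found in 60.2% and 22.9% of cells. Aars, alanyl-tRNA synthetase, was at 66.3, 65.3, 61.3 and 54.5 CPM against 30.6, 28.6, 35 and 29.6 CPM (2.00-fold, 1.00 ± 0.12 log2, adjusted p = 0.000146). Slc3a2, a chain of amino acid transporters, was 1.83-fold higher, at 250.2 ± 39.9 against 136.8 ± 13.3 CPM (s.d., n = 4; adjusted p = 0.00163). Sars, Cebpb, Ddit3, Asns, Atf3 and Trib3 were the other called members. Atf3, a stress-induced transcription factor, was at 145.4, 105.04, 112.4 and 142.96 CPM against 69.4, 17.3, 35.8 and 19.3 CPM (1.84 ± 0.47 log2, adjusted p = 0.0223).

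The composite sequence TGATGNAAN, to which Atf4 and C/EBP proteins are known to bind, was searched on both strands of the same promoter windows. It was present in 10 of 26 members of the list and in 4 of 9 called members (Aars, Asns, Atf3 and Trib3), against 3.95% of all promoters. The stretch before the RefSeq start of Atf3, which lies within the longer GENCODE gene but in none of its exons, holds the match on the opposite strand, in capitals (chr1:191183405-191183464, minus strand).
Atf3: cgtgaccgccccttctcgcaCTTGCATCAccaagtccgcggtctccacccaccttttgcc

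Of 22 immediate early genes, which are transcribed within minutes of a stimulus, 9 were called higher and 0 lower (median 0.69). Fos was at 308.1, 334.3, 288.02 and 269.6 CPM in LTCs and 119.8, 77, 45.8 and 79 CPM in extravascular TCs (3.73-fold, 1.90 ± 0.23 log2, adjusted p = 0.000137). Klf6, a zinc-finger factor, was at 286.8, 304.1, 248.1 and 282.2 CPM against 155.4, 139.2, 111.3 and 125.4 CPM (2.11-fold, 1.08 ± 0.11 log2, adjusted p = 3.91e-05). Dusp1, a phosphatase of MAP kinases, was at 67.4, 66.3, 87.2 and 107.4 CPM against 41.8, 15.2, 20.3 and 18 CPM (3.45-fold, 1.79 ± 0.30 log2, adjusted p = 0.00158). The groups were separate for these 3 genes. Genes of this kind are also known to respond to tissue dissociation, and the part of sample handling on the 2 days was not tested.

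Of 42 lysosome and autophagy genes 11 were called higher and 0 lower (median 0.52), and 2 were lower without m5 and 1 without m9. Grn (chromosome 11, 102430315 to 102437048), progranulin, was at 352.4, 344.4, 269.4 and 261.4 CPM in LTCs and 109.3, 110.9, 97.9 and 100.9 CPM in extravascular TCs (2.93-fold, 1.55 ± 0.15 log2, adjusted p = 3.04e-05). Map1lc3a, a coat protein of autophagosomes, was at 56.2, 48.2, 36.2 and 42.1 CPM against 14.8, 8.59, 8.77 and 14.6 CPM (3.91-fold, 1.97 ± 0.23 log2, adjusted p = 0.000124). Bnip3l, a receptor that directs mitochondria to autophagy and a member of the hypoxia list, was at 108.8, 108.4, 97.1 and 93.1 CPM against 48.2, 49.9, 38.2 and 40.3 CPM (2.31-fold, 1.21 ± 0.15 log2, adjusted p = 0.00015). The hypoxia list itself had 2 of 21 members higher and 2 lower, or 9.52% each, beside 4.76% and 6.6% of all genes, and 3 were higher without m5 or m8.

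Of 14 tested genes of the circadian clock 5 were called higher (35.7%, beside 4.76% of all genes), 0 lower and 9 not (median 1.23). The count was 2 at a mean CPM of at least 10 and 1 without the cells scored as cycling. The 5 were Nr1d1, Per1, Per2, Per3 and Ciart. Nr1d1, the nuclear receptor Rev-erbα, was at 53.2, 69.2, 58.7 and 41.6 CPM in LTCs and 24.5, 6.02, 5.87 and 12 CPM in extravascular TCs (4.60-fold, 2.20 ± 0.41 log2, adjusted p = 0.00356). Per3 was at 14.1, 11, 8.40 and 8.33 CPM against 1.04, 3.65, 2.84 and 3.40 CPM (3.82-fold, 1.93 ± 0.37 log2, adjusted p = 0.00417). The hour of sampling is not given in the labels, and its part in the difference was not tested.

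Among galectins, lectins that bind galactosides, 4 of 8 were called higher and 1 lower (median 1.44). Lgals3 (chromosome 14, 47367751 to 47386160) stood at 2440, 2390, 1920 and 1880 CPM in LTCs and 969.7, 872.6, 645.2 and 690.4 CPM in extravascular TCs (2.72-fold, 1.44 ± 0.13 log2, adjusted p = 2.26e-05), and was detected in 99.7% and 99.3% of cells. Lgals3bp, its secreted ligand, was at 53, 71.8, 73.3 and 41.6 CPM against 19.3, 26, 25.5 and 17.8 CPM (2.71-fold, adjusted p = 0.00052). Lgals1 was the member called lower (-0.46 log2).

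Of 14 tested heat shock genes, which act in the cytosol except for a pair in mitochondria, 8 were called lower and 1, Cryab, higher (median -0.37), and 0 were higher without m6 or m11. Hspe1 and Hspd1, the co-chaperone and chaperone of the mitochondrial matrix that are transcribed from a shared promoter, were at 235.03, 213.2, 265.6 and 238.9 CPM against 657.4, 520.7, 559.5 and 525.8 CPM (2.38-fold lower, -1.25 ± 0.10 log2, adjusted p = 8.76e-06) and at 243.5, 260.2, 294.8 and 231.9 CPM against 487.4, 605.8, 604.3 and 574.1 CPM (2.20-fold lower, -1.14 ± 0.10 log2, adjusted p = 1.87e-05). Both separated the gates. The heat shock element (TTC, GAA and TTC, each 2 bases of any kind apart) was present on either strand in 4 of 11 promoters of the list and in 4 of the 5 called members with a promoter sequence (Hspe1, Hspd1, Chordc1 and Hsph1), against 0.603% of all promoters. The matches of Hspe1 and Hspd1 overlap in their shared promoter, so that this stretch is counted for both genes.

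Of 24 chaperones of the endoplasmic reticulum 7 were called lower and 1 higher (median -0.22), and 0 were higher without m5, m7, m8, m9, m10 or m12, whereas on the deposited log10 values 5 were lower and 7 higher (median 0.15). Hspa5, the chaperone BiP, was at 710.9, 766.2, 712.1 and 806.5 CPM in LTCs and 1230, 1160, 1300 and 1590 CPM in extravascular TCs (1.76-fold lower, -0.82 ± 0.11 log2, adjusted p = 0.000275). Hsp90b1 was at 481.5, 377.1, 411.1 and 432.6 CPM against 637.8, 690.1, 760.6 and 768.6 CPM (1.68-fold lower, adjusted p = 0.000254). Canx, calnexin, was at 80, 84.9, 71.4 and 69.8 CPM against 105.6, 114.7, 106.4 and 126.5 CPM (1.48-fold lower, adjusted p = 0.00454). The endoplasmic reticulum stress element, searched as CCAAT and CCACG with 9 bases of any kind between them on either strand, was present in 9 of 21 promoters of the list and in 5 of the 7 called members with a promoter sequence (Calr, Canx, Hsp90b1 and Hspa5, which were lower, and Syvn1, which was higher), against 0.119% of all promoters. In the Canx promoter the element, in capitals, lies upstream of the GENCODE gene (chr11:50325779-50325838, minus strand).
Canx: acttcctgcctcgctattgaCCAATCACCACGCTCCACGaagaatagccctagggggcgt

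Of 33 sterol and fatty acid synthesis genes 8 were called lower (24.2%, beside 6.6% of all genes), 1 higher and 24 not (median -0.51). The count of lower genes was 1 without the cells scored as cycling and 17 on centred log10 values, and that of higher genes was 0 without m5, m10, m11 or m12. Fasn, fatty acid synthase, was at 56.6, 56.1, 49.4 and 61.8 CPM in LTCs and 81.6, 94.7, 89.9 and 110.9 CPM in extravascular TCs (1.68-fold lower, -0.75 ± 0.12 log2, adjusted p = 0.000983). Its call was lost in limma on the deposited log10 values (-0.19 log2, adjusted p = 0.571). Msmo1, a demethylase of cholesterol synthesis, was at 20.2, 32.4, 28.2 and 21.8 CPM against 55.5, 51.2, 71.3 and 60.8 CPM (2.33-fold lower, -1.22 ± 0.20 log2, adjusted p = 0.00126). Tfrc, the transferrin receptor, was at 14, 9.64, 12.5 and 16 CPM against 25.5, 26, 27.7 and 32.8 CPM (2.15-fold lower, adjusted p = 0.00229), and Fth1, ferritin heavy chain, was higher at 12100, 9370, 8530 and 12300 CPM against 7580, 8280, 6980 and 7280 CPM (1.40-fold, adjusted p = 0.012), a difference that turned to -0.20 log2 on centred log10 values.

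Of 27 epithelial markers 7 were called higher (25.9%, beside 4.76% of all genes), 0 lower and 20 not (median 0.42). The count was 4 without m10, 0 without the cells scored as cycling and 12 on the deposited log10 values, and 5 were lower on centred log10 values. Krt19, a keratin, was at 132.8, 81.1, 70.5 and 95.3 CPM in LTCs and 37.5, 33.6, 46.3 and 39.7 CPM in extravascular TCs (2.42-fold, 1.27 ± 0.26 log2, adjusted p = 0.00642). Cldn4, a tight junction protein, was at 94.7, 126.4, 86.4 and 85.7 CPM against 48.1, 28.5, 59.6 and 37.8 CPM (2.26-fold, adjusted p = 0.0102). Epcam (0.03 ± 0.18 log2), Cdh1 (0.02 ± 0.17 log2) and Krt8 (-0.07 ± 0.19 log2) overlapped between the gates and were not called, nor was Vim, a filament of mesenchymal cells, at 1780, 1780, 1950 and 1850 CPM against 1470, 1770, 1810 and 2210 CPM (0.02 ± 0.11 log2). On centred log10 values Epcam (-0.51 log2), Krt8 (-0.53 log2), Krt18 (-0.44 log2) and Vim (-0.63 log2) passed the threshold.

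Of 18 mesenchymal markers 4 were called higher and 2 lower (median 0.31), and of the study's epithelial-to-mesenchymal transition (EMT) list 37 genes were higher and 18 lower (13.1% and 6.36% of those tested, beside 4.76% and 6.6% of all genes, median 0.11). Without the cells scored as cycling 5 were higher and 9 lower. On centred log10 values the balance of the EMT list turned, with 42 higher and 52 lower (median -0.07, where all genes had -0.16). S100a4, a calcium-binding protein of motile cells, was at 7440, 5700, 7540 and 7030 CPM in LTCs and 5090, 3550, 3440 and 3530 CPM in extravascular TCs (1.78-fold higher, 0.83 ± 0.15 log2, adjusted p = 0.003), with -0.09 log2 on centred log10 values. Axl, a receptor tyrosine kinase, was 1.89-fold lower, at 46.5, 48.3, 44.1 and 31 CPM against 82.3, 82.4, 62 and 95.1 CPM (-0.92 ± 0.18 log2, adjusted p = 0.00431).

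The extracellular matrix list had 3 of 49 members called higher, 6 lower and a median of -0.06, or 6.12% and 12.2%, beside 4.76% and 6.6% of all genes. The counts of higher and lower members were 10 and 6 with DESeq2, 7 and 6 at a mean CPM of at least 10, 5 and 5 without m5, 11 and 4 on deposited log10 values, 6 and 14 on centred log10 values, and 1 and 1 without the cells scored as cycling. Fn1, fibronectin, was at 732.01, 559.5, 409.7 and 394.7 CPM in LTCs and 202.3, 331.4, 291.4 and 254.9 CPM in extravascular TCs (1.94-fold higher, 0.96 ± 0.21 log2, adjusted p = 0.00877). Sparc, a matricellular protein, was at 404.7, 370.6, 444.2 and 407.9 CPM against 190.2, 241.4, 211.5 and 229.2 CPM (1.87-fold higher, adjusted p = 0.00604), with -0.09 log2 on centred log10 values. Plau, the urokinase that activates plasmin, was at 8.84, 11.6, 14.1 and 15.7 CPM against 27.9, 38.4, 42.5 and 47.4 CPM (3.10-fold lower, -1.63 ± 0.21 log2, adjusted p = 0.000281). Spp1, osteopontin, was at 2510, 1820, 915.1 and 1440 CPM against 392.03, 675.5, 783.5 and 716.1 CPM (1.38 ± 0.41 log2, adjusted p = 0.0441). This call was lost without any one of m5, m6, m7, m8, m9, m10 and m12, with adjusted p values of 0.113, 0.0849, 0.0711, 0.08, 0.136, 0.101 and 0.0716.

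Integrins, the receptors through which cells hold the matrix, had 2 of 14 members called higher and 3 lower, or 14.3% and 21.4%, beside 4.76% and 6.6% of all genes. The count of higher members was 0 without m5, m6, m10 or m11 and 1 without any of the other libraries, and that of lower members was 2 without m8, m9, m10 or m12. Itgb1, the β1 chain common to most of them, was at 311.02, 320.8, 375.6 and 294.1 CPM in LTCs and 680.1, 618.7, 713.7 and 666.3 CPM in extravascular TCs (2.06-fold lower, -1.04 ± 0.09 log2, adjusted p = 1.37e-05). Itga2, a collagen-binding partner of β1, was at 34.8, 42, 47.2 and 46.6 CPM against 66.5, 106.6, 84 and 76.8 CPM (1.96-fold lower, -0.97 ± 0.16 log2, adjusted p = 0.00161). Of 14 tested genes of the study's extravasation list 0 were called higher and 2 lower (14.3%, beside 6.6% of all genes), Itgb1 and Itga6, and the direction of Itga6 turned to 0.08 log2 on the deposited log10 values. The call of Itga6 was lost without m5, m6, m8, m9, m10 or m12, with adjusted p values of 0.0632, 0.0696, 0.0925, 0.0647, 0.0659 and 0.077, and the list then had 1 member called lower except without m5, where it had 2 and 1 member was called higher. With the cells scored as cycling left out, 0 members were called.

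TGF-β and BMP signalling had 5 of 41 members called higher and 1 lower (median 0.25), or 12.2% and 2.44%, beside 4.76% and 6.6% of all genes. The 5 were Id1, Id2, Id3, Ltbp1 and Tgif1, and the count was 3 without m5, m9, m10, m11 or m12. The counts of higher and lower members were 9 and 1 with DESeq2, 16 and 1 on deposited log10 values, 10 and 4 on centred log10 values, and 0 and 0 without the cells scored as cycling. Id2, a BMP-responsive inhibitor of differentiation factors, was at 72.5, 76.6, 88.7 and 94.8 CPM in LTCs and 34.9, 43, 34.9 and 53.2 CPM in extravascular TCs (2.00-fold, 1.00 ± 0.16 log2, adjusted p = 0.00117), with -0.04 log2 without the cells scored as cycling. Id3 was at 253.2, 297.8, 436.7 and 398.6 CPM against 162.3, 227.4, 191.1 and 227.7 CPM (1.71-fold, adjusted p = 0.0145). Tgfb1, the ligand, was lower at 3.35, 3.73, 2.50 and 3.32 CPM against 11.7, 14, 9.56 and 10.9 CPM (3.57-fold lower, -1.83 ± 0.24 log2, adjusted p = 0.000242). Tgfb2, at 3.77 ± 1.30 against 4.99 ± 3.35 CPM (s.d., n = 4), was not called.

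Among 36 genes associated with dormancy 3 were called higher and 2 lower (median 0.25), which is 8.33% and 5.56%, beside 4.76% and 6.6% of all genes. The count of higher genes was 5 without m6, and that of lower genes was 1 without m5, m7, m8, m9, m10 or m12. The counts were 1 higher and 0 lower without the cells scored as cycling, 17 and 1 on deposited log10 values, 9 and 8 on centred log10 values, and 7 and 2 with every cell weighted equally. The 3 were Cdkn2d, Ndrg1 and Sox9. Sox9, a transcription factor of progenitor cells, was at 59.3, 61.1, 54.8 and 45.1 CPM in LTCs and 28.2, 14.6, 22.6 and 25.8 CPM in extravascular TCs (2.41-fold, 1.27 ± 0.21 log2, adjusted p = 0.0017). Nr2f1, a nuclear receptor linked to dormancy, was at 2.70, 7.04, 4.71 and 3.87 CPM against 3.01, 4.15, 3.72 and 2.46 CPM and was not called (0.46 ± 0.39 log2, adjusted p = 0.517). In the study's stemness and dormancy list Sox9, Klf4 and Myc were called higher and Nanog and Itga6 lower, of 10 tested, and 1 was lower without m5, m6, m8, m9, m10 or m12. Klf4, a pluripotency and differentiation factor, was at 64, 38.1, 23.2 and 28.6 CPM against 12.8, 7.90, 4.99 and 5.85 CPM (4.88-fold, 2.29 ± 0.39 log2, adjusted p = 0.00196).

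The 12 largest falls were Pbld1, Synb, Olfr655, Siglec1, Cxcr2, Mpv17l, Zfp934, Vamp3, Zfp131, Zfp990, Plekha3 and Arl5c, of which several are best known from other cell types, such as Siglec1, a macrophage lectin, Cxcr2, a neutrophil chemokine receptor, and Olfr655, an odorant receptor. Pbld1 was at 16.8, 15.9, 13.5 and 13.4 CPM in LTCs and 98.9, 65.8, 73.9 and 66.8 CPM in extravascular TCs (5.12-fold lower, -2.35 ± 0.16 log2, adjusted p = 4.69e-06). Cxcr2 was at 17.5, 18.2, 16.6 and 20.4 CPM against 92.4, 59.3, 65.5 and 82.1 CPM (4.12-fold lower, -2.04 ± 0.16 log2, adjusted p = 8.76e-06), with reads in 74.2% and 91.8% of cells. Vamp3, a protein of vesicle fusion, was at 83.1, 111.9, 96.4 and 97.2 CPM against 551.9, 335.1, 320.5 and 318.5 CPM (3.93-fold lower, -1.97 ± 0.17 log2, adjusted p = 1.4e-05). All 12 genes had separate groups by the way they were named.

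The transcripts of all 12 held at least 1 sequence word of 31 bases that also occurs in transcripts of 100 or more other genes, whereas this held for 1 of the 12 largest rises. Over the 5094 genes with at least 20 CPM in 1 gate, 1652 held such a word, a definition chosen after the values had been seen. A stretch shared by 10 of the 12 is shown because it is common to them, and it occurs in transcripts of 638 of 55341 genes of GENCODE release M21. It reads, on the opposite strand, like the B2 family of short interspersed repeats.
Shared stretch: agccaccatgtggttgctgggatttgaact

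Genes were called lower more often where they held many such words. The share was 16.1% of 3442 genes with no such word, 11.2% of 768 genes with 1 to 20, 15.9% of 586 genes with 21 to 60 and 27.2% of the genes with over 60, against 16% of all 5094. The share called higher was 11.3%, 9.38%, 5.80% and 5.37% in the same order. Reads from such words cannot be assigned to 1 gene, so the levels of these 12 genes are uncertain, and the part of the shared words in their falls was not tested.

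**Figure D4:**
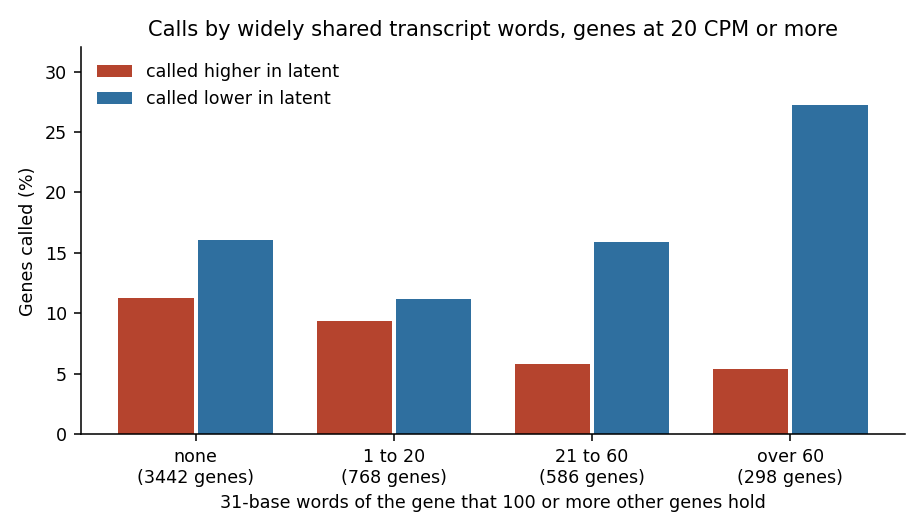
Percentage of genes called higher (red) and lower (blue) in LTCs, for genes with at least 20 CPM in 1 gate, grouped by how many of their 31-base words are found in 100 or more other genes. The share called lower is 27.2% in the group with over 60 such words and 11.2 to 16.1% in the other groups.

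Intravascular TCs of day 1.5, from the same mice as the extravascular TCs, place these differences beside a further gate. LTCs against intravascular TCs gave 2394 called genes (15.3%), 1117 higher (7.14%) and 1277 lower (8.17%). The comparisons share the latent libraries, so their values are given side by side only. The share of cells scored as cycling was 77.9% ± 3.58 (s.d., n = 4) in the intravascular gate, the median of detected genes was 4760 ± 119.4, and the mitochondrial share was 3.05% ± 0.41. For ribosomal proteins and mitochondrially encoded genes the intravascular levels lay on the extravascular side, as for Rps21 (555.8 CPM, with 274.9 in LTCs and 583.03 in extravascular TCs) and mt-Nd4l (1470 CPM, with 577.3 and 1370). For some interferon and proteasome genes they lay on the latent side. Ifitm3 had a mean of 1910 CPM in intravascular, 1700 in latent and 1060 in extravascular TCs, with a difference of LTCs from intravascular TCs of -0.16 ± 0.10 log2 (adjusted p = 0.299). Psmb10 stood at 312.5, 329.2 and 202.8 CPM in the same order (0.08 ± 0.09 log2, adjusted p = 0.634). Psmb8 lay between, at 211.5, 365.5 and 95.8 CPM (0.79 ± 0.13 log2, adjusted p = 0.000826). H2-K1, by contrast, had 316.2, 675.2 and 314.5 CPM, and differed from intravascular TCs by 1.09 ± 0.21 log2 (adjusted p = 0.00297). Hmox1, heme oxygenase, was at 26.4, 37.7, 15.3 and 12.4 CPM against 17, 7.76, 11.6 and 3.9 CPM in extravascular TCs (1.19 ± 0.45 log2, adjusted p = 0.114) and 8.31 CPM in intravascular TCs (1.46 ± 0.46 log2, adjusted p = 0.0459). The difference from extravascular TCs was called with DESeq2 (adjusted p = 0.0488), at a mean CPM of at least 10 (adjusted p = 0.0342) and by limma on both log10 scales and on the mean CPM per cell (adjusted p = 9.7e-05, 0.0132 and 0.017).

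The proliferative TCs of day 3.5 and the cultured cells were used as 1 pool each and give levels only. The labels list 4 replicates of the proliferative gate, whereas the deposited annotation gives all proliferative cells the identifier of mouse m12, so these cells could not be divided by animal. Fos stood at 250.7 CPM in the proliferative pool, 300.01 in LTCs and 80.4 in extravascular TCs, and at 24.6 in culture. Dusp1 showed 97.6, 82.1, 23.8 and 29.5 CPM in the same order. Rps21 was at 341.1 CPM and mt-Co2 at 3640 CPM in the proliferative pool, between the means of LTCs (274.9 and 2710) and extravascular TCs (583.03 and 5890). Lgals3 in the proliferative pool was close to its extravascular level, at 826.4 CPM against 2160 in LTCs and 794.5 in extravascular TCs, and Grn lay between, at 183.7, 306.9 and 104.7 CPM. Some other genes that were higher in LTCs were about as high in the proliferative pool. Psmb10 was at 299.7 CPM in the pool, 329.2 in LTCs and 202.8 in extravascular TCs. In the same order Sparc was at 444.5, 406.9 and 218.1 CPM and Myc at 101.9, 87 and 51.2 CPM. Cdk1 was at 398.1, 415.8 and 227.4 CPM. H2-K1 lay between, at 487.1, 675.2 and 314.5 CPM. Fn1 (195.5, 523.97 and 269.99 CPM) lay below its extravascular level and Ifitm3 (1130, 1700 and 1060 CPM) near it.

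**Figure D5:**
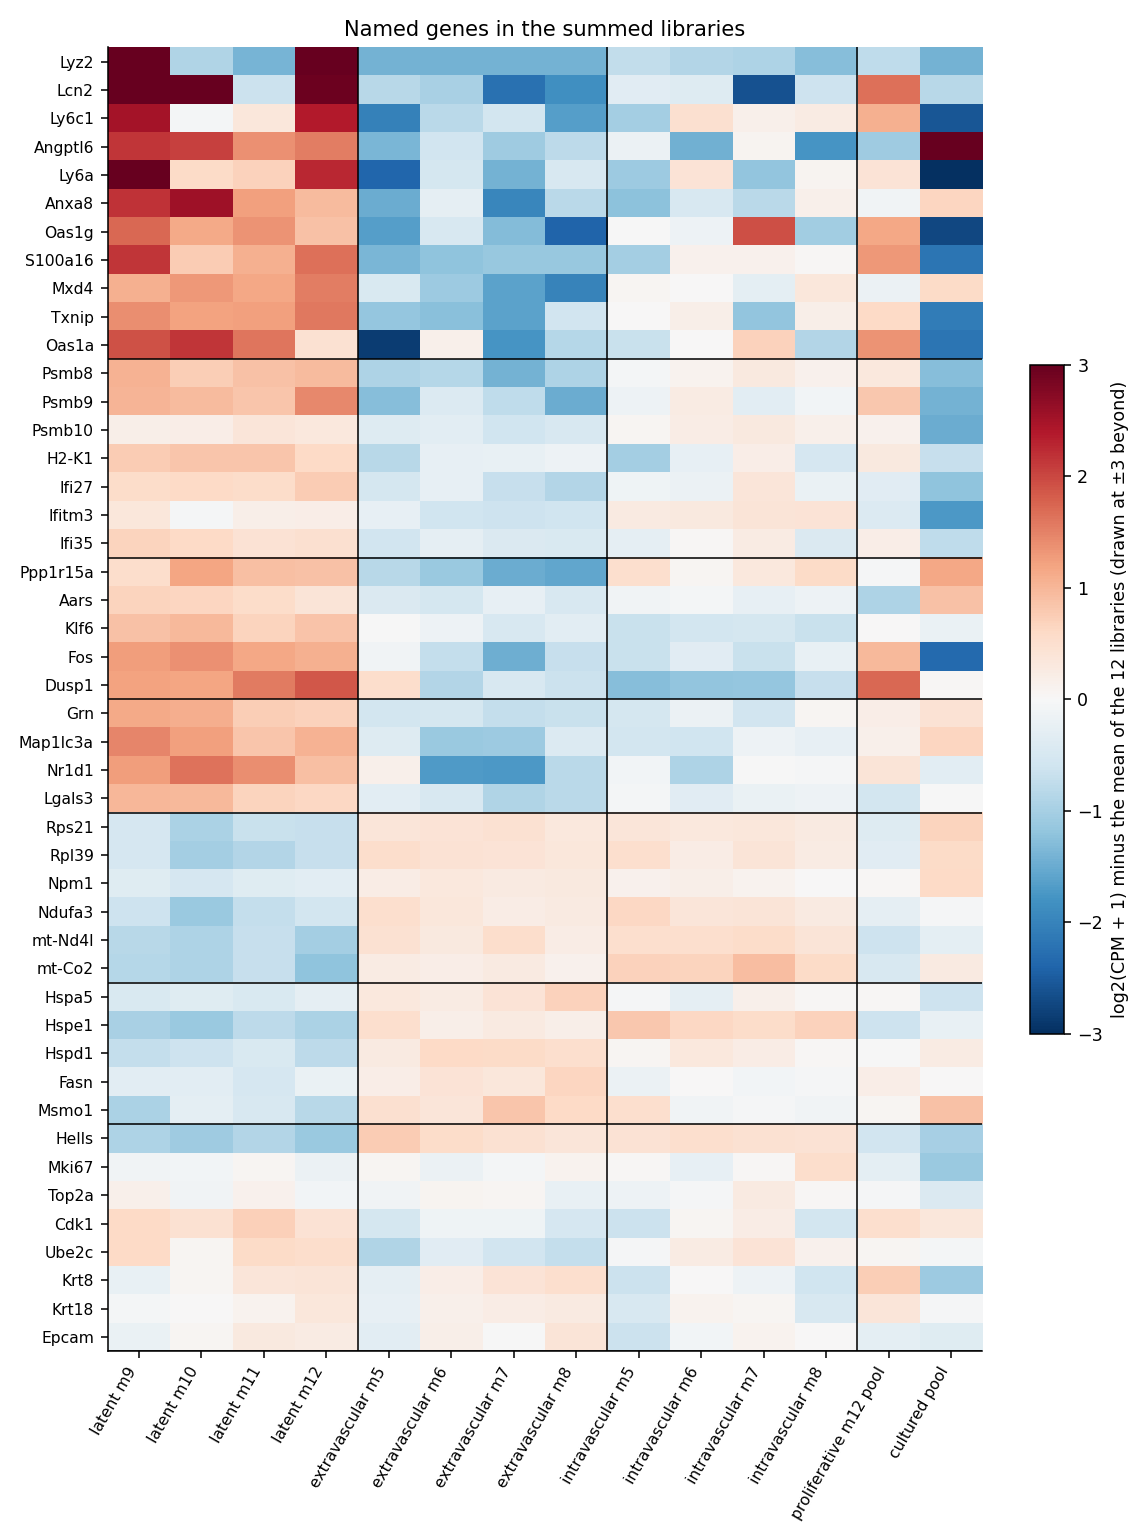
Levels of named genes (rows) in the 12 libraries and the 2 pools (columns), as log2(CPM + 1) minus the mean of the 12 libraries for that gene, with red above and blue below the mean. Immunoproteasome, stress, early and lysosome genes are red in the 4 latent columns, ribosomal, mitochondrial and chaperone genes are blue there, and Mki67, Krt8, Krt18 and Epcam overlap between the latent and extravascular columns.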

How the data were processed

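Tumour cells were sequenced 1 per well by a modified SMART-Seq2 protocol on poly(A) RNA, with 1 pool of cells per sequencing lane and sort gate. The authors deposited raw tables that hold, for each cell, the estimated counts of 35299 genes, made with Salmon 0.7.2 on GRCm38 according to the submitters' processing notes, whose annotation release and use of strand are not given in the sources used here. The authors also deposited filtered log10 values for 21858 genes, in which counts had been scaled to a housekeeping panel, and an annotation of mouse and gate for each cell. These log10 values served to find the kept cells, for the cycling scores and for 2 alternatives. Of 96 sorted cells per animal and gate, 69 to 85 were kept.

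Estimated counts of kept cells were summed per animal and gate and the sums rounded. The animal was the replicate, with 4 latent, 4 extravascular and 4 intravascular libraries of 31.9 to 49.9 M reads, so p-values measure the spread between animals of 1 experiment. The extravascular and intravascular libraries came from the same mice, and the fit treated them as independent. A fit of the latent and extravascular libraries alone called 1703 genes. The mouse identifiers could not be matched to the replicate numbers of the labels. All 12 libraries were fitted together with edgeR 4.0.16 in R 4.3.3 (TMM, filterByExpr, robust quasi-likelihood fit, gate as the only term) and tested with Benjamini-Hochberg adjustment at 0.05. The design followed the study's use of pseudobulks, with DESeq2 1.42.0 as an alternative. CPM values use TMM-scaled library sizes, and values without molecular identifiers are reads, not molecules. Cells were scored for S and G2M genes with Seurat 5.3.0, and 3 cell measures were compared by two-sided exact permutation over animals. For detected genes each cell was thinned to 100000 reads, which left out 20 latent and 12 extravascular cells.

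The members and the gene lists were chosen with earlier results of these data known. Named genes were the 12 largest rises and 12 largest falls among called genes with separate groups and at least 20 CPM in 1 gate (predicted genes and pseudogenes left out), the 3 called members of each list with the smallest p, and a fixed set that included Mki67, Vim, B2m and Spp1. Lists are described by their counts and medians, with no test. Gene positions and shared words come from GENCODE M21, and promoters from RefSeq GRCm38.p6. Paralogous, overlapping and antisense genes are uncertain. Alternatives were DESeq2, size factors by relative log expression (RLE), other filters, subsets of cells and libraries, and limma 3.58.1 on 3 scales; the fits were tested on simulated data. Results on some genes that met the rule are not reported here.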

Additional observations from a re-analysis of the deposited data

Results flagged for a closer look

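In 15 sets of 4 libraries, 1 library stood apart from the other 3, judged by its gap to the nearest of them as a share of the range of all 4. Chance alone gives such a gap in about 1 of 20 sets. Over all the sets examined, that comes to about as many as were found. The library of extravascular mouse m5 accounted for 8 of the 15. It was the high one for Ifitm3 (1270 CPM, the others 982.1 to 994.2; 0.958 of the range), S100a4 (5090 CPM, the others 3440 to 3550; 0.936), Vamp3 (551.9 CPM, the others 318.5 to 335.1; 0.929), Nanog (6.27 CPM, the others 3.78 to 4.03; 0.899), Zfp131 (583.6 CPM, the others 314.8 to 349.3; 0.872), Siglec1 (48.1 CPM, the others 24.8 to 27.9; 0.867) and Plekha3 (155.2 CPM, the others 82.4 to 92.3; 0.864). It was the low one for H2-K1 (224.2 CPM, the others 336.5 to 358.2; 0.838).

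Among the other extravascular libraries, m6 was low for Tnfrsf10b, a death receptor (12.1 CPM, the others 19.4 to 20.7; 0.849), and m7 was low for Psmb8 (72.5 CPM, the others 101.7 to 107.1; 0.843). Among the latent libraries, m10 was low for Cdkn2d (119.4 CPM, the others 155.8 to 159.3; 0.913), for the ATP synthase subunit Atp5j2 (426.03 CPM, the others 494 to 505.6; 0.854) and for Ube2c (401.3 CPM, the others 559.6 to 591.8; 0.831). Latent m11 was low for Pdia3, a disulphide isomerase of the endoplasmic reticulum (284.2 CPM, the others 300.4 to 302.8; 0.874), and high for Zfp934 (19.4 CPM, the others 13.3 to 14.2; 0.855). Values other than CPM are shares of the range.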

How the results depend on the processing

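Against extravascular TCs, 1777 genes were called in the main analysis, 2867 with DESeq2, 531 without the cells scored as cycling, 5199 on deposited log10 values and 5025 on centred log10 values, and between 1264 (without m10) and 1595 when 1 library was left out. The other alternatives gave 1488 to 2057, the lowest with no filter on low counts and the highest with every cell weighted equally. Against intravascular TCs the corresponding counts were 2394, 702 without the cells scored as cycling, 4094 and 4765 on the log10 scales, and 1753 to 2226 with 1 library left out. Leaving out the 4 latent cells with leukocyte markers, an alternative chosen after seeing the data, gave 1747 calls. The cycling difference was -6.01 points on thinned cells and -6.11 points with the higher threshold (exact permutation p = 0.0857 and 0.257), and -15.4 to -10.8 points with 1 animal left out. The differences in detected genes (653.3 to 799.3) and mitochondrial share (-1.21 to -0.887 points) stayed at the smallest exact permutation p when any 1 animal was left out.

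The fold change of some named genes changed sign, on centred log10 values for Sparc (-0.09), S100a4 (-0.09), Fth1 (-0.20), Ccnd1 (-0.65) and B2m (-0.36), on deposited log10 values for Itga6 (0.08) and without the cells scored as cycling for Id2 (-0.04), all in log2. Of these, Ccnd1 and B2m passed the threshold after the change of sign (limma, adjusted p = 0.00123 and 0.0243). The cause of the changes of sign was not tested. Of the called named genes, 0 lost the call with DESeq2, 6 to 10 when 1 library was left out, and 72 without the cells scored as cycling, Id2 included, where 46 held it. No paired analysis was possible because the columns carry mouse identifiers that cannot be matched to the replicate numbers of the labels, and the latent and extravascular mice are different animals, so the planned replicate block was not run. Depth limits genes with few reads, such as those with reads in few cells.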

Other observations

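Several signalling lists were compared between LTCs and extravascular TCs, beside 4.76% of all genes called higher and 6.6% called lower. Of 35 tested NF-kB targets and chemokines 3 were called higher and 0 lower (8.57% and 0%, median 0.06). Of 34 actin and Yap targets 1 was higher and 1 lower (2.94% each, median -0.13). Of 22 p53 targets 1 was higher and 1 lower (4.55% each, median 0.07). The Nrf2 and iron list had 1 of 22 genes higher and 1 lower (4.55% each, median 0.11). With 1 library left out, the actin and Yap list had 0 higher without m6, m8, m9, m11 or m12 and 2 lower without m11, the p53 list had 0 higher without any of the libraries but m6, the Nrf2 and iron list had 2 higher without m6 and 2 lower without m5, m10 or m12, and the NF-kB list had 2 higher without any of the libraries but m6 and m9. The study's noncanonical Wnt list had 0 of 26 called (1 lower without m6, 2 lower with DESeq2), and its canonical list had 3 of 32 higher and 2 lower, at 4.76% higher and 6.6% lower over all genes, with 1 lower without m5, m6, m7, m9, m10, m11 or m12 and 6 higher with DESeq2. Nfkbia, the inhibitor that NF-kB induces, was at 723.1, 640.1, 777.5 and 727.4 CPM against 625.1, 297.1, 305.2 and 376.96 CPM, with m5 the highest extravascular library (0.84 ± 0.19 log2, adjusted p = 0.0129, edgeR quasi-likelihood test with Benjamini-Hochberg adjustment).

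Some receptors and ligands differed singly. Igfbp7, a secreted binding protein of insulin-like growth factors, was at 309.2, 471.2, 567.2 and 415.5 CPM in LTCs and 171.7, 223.7, 107.2 and 175.3 CPM in extravascular TCs (2.6-fold, 1.38 log2, adjusted p = 0.00397). Without the cells scored as cycling Igfbp7 differed by 0.22 log2 and was not called (edgeR, adjusted p = 0.889). Fgfr1, a fibroblast growth factor receptor, was lower at 3.49, 3.68, 2.87 and 4.33 CPM against 9.67, 7.44, 7.83 and 7.19 CPM (-1.16 ± 0.26 log2, adjusted p = 0.0103). Its call was lost in edgeR on thinned cells (-0.81 log2, adjusted p = 0.0943) and without the cells scored as cycling (-0.46 log2, adjusted p = 0.807). It was also lost in limma on deposited log10 values (-0.57 log2, adjusted p = 0.0671) and with every cell weighted equally (-0.67 log2, adjusted p = 0.0591). Notch1, the receptor of Delta and Jagged ligands, was at 32.5, 39, 23.2 and 18.8 CPM against 9.89, 8.85, 13.1 and 17.5 CPM (2.3-fold, adjusted p = 0.0103). Ndrg1, a stress-induced growth suppressor, was at 164.5, 155.6, 167.1 and 136.1 CPM against 72.4, 42.4, 34.8 and 29.1 CPM (3.49-fold, adjusted p = 0.00719), and Higd1a, a mitochondrial hypoxia-induced protein, was lower at 120.5, 97.8, 120.5 and 115.02 CPM against 270.1, 201.97, 173.5 and 191.7 CPM (-0.88 ± 0.13 log2, adjusted p = 0.000748). The groups did not overlap in these 5 genes, of which Notch1 was picked after its values had been seen.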
